A study of Mus musculus with 24 samples.

Results

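The 54 genes described here encode the contractile apparatus of adult skeletal muscle, its calcium-handling and energy-supply proteins, the ubiquitin ligases of muscle atrophy and a few proteins of muscle stress and repair. They were chosen by name, and all 54 were found among the 52976 gene symbols counted and passed the filter on low counts. They were measured in 18 wound libraries of diabetic mice: controls and wounds treated with Fmoc-KYF-AgNCs-3S1C-Hyd2 hydrogel, each at days 1, 7 and 14 with 3 libraries. All wounds, controls included, came from diabetic animals. Titles name the control wounds Dia and the treated wounds TEOA, and the labels give the hydrogel only as the treatment. By the series title, the gel combines a peptide with silver nanoclusters and a hydrogenase, the kind of enzyme that makes hydrogen gas, and is driven by light. How diabetes was induced, the strain, sex and age of the mice, the depth of the wound sample and the source of replicate libraries are not given in the sources used here, so p-values speak only of the variation among these libraries, part or all of which may be technical. The other 6 libraries of the series are from RAW264.7, an established mouse macrophage line.

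A sarcomere is built from thin filaments of actin, tropomyosin and troponin that slide along thick filaments of myosin, with titin and the Z-disc and M-band proteins as scaffold. Release of calcium through the ryanodine receptor starts contraction, and the SERCA pumps end it by returning calcium to the store. Fast and slow fibres use different paralogues of many of these proteins. Mouse skin carries a thin sheet of striated muscle under the dermis, the panniculus carnosus, so a wound sample can hold muscle. Trim63 (MuRF1) and Fbxo32 (atrogin-1) are ubiquitin ligases that rise in wasting muscle.

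RefSeq promoter windows, taken from the build GRCm38.p6, were matched for 41 of the 54 genes. In the 250 bases before a listed start, a CArG box, the site bound by serum response factor, was found in 7 of the 41 genes (17.1%) and in 1.62% of 27018 genes. A MEF2 box was found in 9 of 41 (22%) against 3.41%, the E-box CANNTG in 36 of 41 (87.8%) against 69.3%, and the forkhead core GTAAACA in 2 of 41 (4.88%) against 3.54%. Both strands were searched, overlaps between motifs were allowed, and a gene counted when any of its listed starts had a match. A match describes letters, not a bound site. The stretches of 150 bases below hold no exon bases in the annotation of the files and belong to genes with differing patterns: Acta1 and Myh4 followed the bulk of the muscle genes, Trim63 had the lowest adjusted p among members that fell from day 1 to day 7 in controls, Fbxl22 differed at day 1, and Actc1 and Casq2 were highest in day 7 controls. Capitals mark CArG, MEF2 and E-box matches.
Acta1: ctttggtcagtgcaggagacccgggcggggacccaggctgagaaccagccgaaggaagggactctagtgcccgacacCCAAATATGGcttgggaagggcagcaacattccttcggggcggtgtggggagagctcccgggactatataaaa
Myh4: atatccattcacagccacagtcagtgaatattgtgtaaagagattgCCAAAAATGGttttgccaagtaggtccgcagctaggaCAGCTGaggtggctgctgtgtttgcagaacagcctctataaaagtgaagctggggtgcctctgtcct
Trim63: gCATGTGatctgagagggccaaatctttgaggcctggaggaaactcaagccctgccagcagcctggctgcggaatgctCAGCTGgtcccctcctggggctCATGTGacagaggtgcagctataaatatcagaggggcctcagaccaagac
Fbxl22: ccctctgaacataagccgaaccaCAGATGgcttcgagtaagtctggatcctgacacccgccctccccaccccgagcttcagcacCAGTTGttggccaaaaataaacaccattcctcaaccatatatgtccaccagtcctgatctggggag
Actc1: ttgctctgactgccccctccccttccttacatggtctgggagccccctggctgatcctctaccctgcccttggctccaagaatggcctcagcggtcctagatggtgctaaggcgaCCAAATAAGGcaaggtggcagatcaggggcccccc
Casq2: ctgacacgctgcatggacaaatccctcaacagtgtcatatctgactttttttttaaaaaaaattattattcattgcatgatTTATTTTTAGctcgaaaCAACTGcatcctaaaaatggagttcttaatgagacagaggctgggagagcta
The stretches lie at chr8:123894776-123894925, minus strand (Acta1), chr11:67237662-67237811, plus strand (Myh4), chr4:134314970-134315119, plus strand (Trim63), chr9:66514610-66514759, minus strand (Fbxl22), chr2:114052888-114053037, minus strand (Actc1) and chr3:102086265-102086414, plus strand (Casq2). The Actc1 stretch lies before a start in RefSeq but inside the longer span that the files give this gene (114047282 to 114053548). The windows of Acta1, Myh4 and Actc1 each held 1 CArG box in the part shown. In the part shown, that of Casq2 held 1 MEF2 box, and that of Trim63 held 3 E-boxes and neither box. Outside the part shown, the 250-base windows held 1 MEF2 box for Myh4, 1 CArG box for Fbxl22 and 1 forkhead core for Trim63. E-boxes in the whole window numbered 2 each for Acta1, Myh4 and Casq2, with 0, 1 and 1 in the part shown.

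Wound libraries held 12.4 to 27.1 M counted read pairs (M, mega). The 54 genes together took 1.11%, 26% and 19.4% of the counts in the control day 1 libraries, 6.04% to 6.18% at control day 7 and 5.56% to 8.9% at control day 14. In hydrogel wounds their share was 15.6% to 23.6% at day 1, 17.9% to 19.4% at day 7 and 3.23% to 5.81% at day 14. Replicate 1 of control day 1 stood apart, with little muscle RNA and with 5.2% of its counts in 10 adipocyte markers, against 0.611% and 0.767% in the other control libraries of that day. In control day 14 replicate 1, 8 basal keratinocyte markers took 0.0635% of counts, against 0.541% and 0.725% in its fellow libraries. Day 7 libraries of each arm were nearly alike: the median chi-square per gene between 2 libraries was 0.643 to 0.795 in controls and 1.29 to 2.31 in hydrogel wounds, where counting error alone gives 0.455. Between the day 1 control libraries it was 7.3 to 30.5. Whether the day 7 libraries come from separate animals cannot be told from the labels, so the counts of the 54 genes and the named members are also given with the 3 libraries of a day 7 group added into 1 where that ends a call. Genes of the other lists were not refitted that way. Of 7 heart markers, Myl7, Nppa and Nkx2-5 stayed below the filter and Tnni3 at or below 2.092 CPM (counts per M, after scaling between libraries) in each wound library. Myh6 reached 140.5 CPM in hydrogel day 1 replicate 3 and Myl4, which is also a gene of regenerating muscle, 304.3 to 307 CPM in control day 7 wounds. In bulk tissue, fewer muscle fibres in the sample and less RNA per fibre cannot be told apart.

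**Figure D1:**
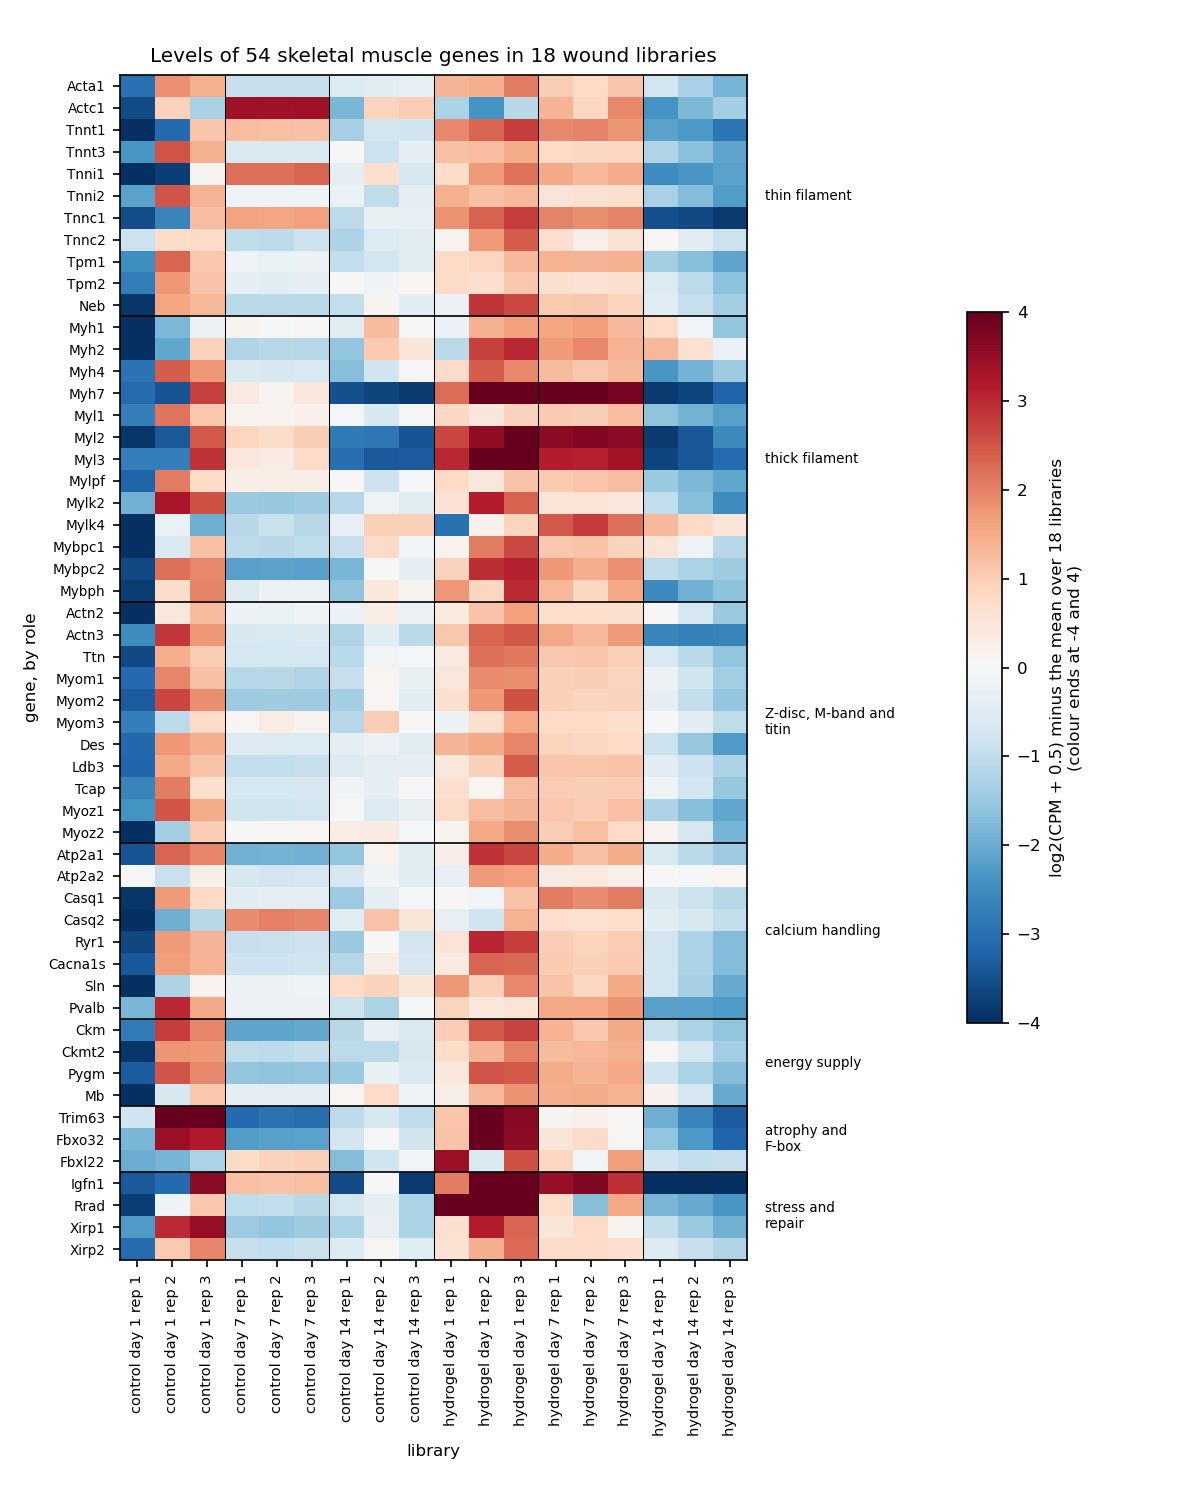
Each row is 1 of 54 genes, grouped by role, and each column 1 of 18 wound libraries, with colour for log2(CPM + 0.5) minus the mean of that gene over the 18 libraries. Control day 1 replicate 1 is blue for nearly the whole set, the hydrogel libraries of days 1 and 7 are mostly red, and Actc1, Casq2 and Tnni1 are red in control day 7 libraries.

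At day 1, 5 of the 54 genes were higher in hydrogel wounds than in controls and none was lower by the edgeR quasi-likelihood test (14 at an unadjusted p below 0.05, and 9 higher with DESeq2). The 5 were Rrad, Fbxl22, Sln, Casq2 and Atp2a2. Of all 17592 genes tested, 4.53% were higher in this comparison and 3.02% lower. Before adjustment, p was under 0.05 for 4563 of the 17592, a share close to that of the 54 genes. The median log2 fold change was 0.81 over the 54 genes and 0.04 over all genes. The groups did not overlap for 9 members, all higher, against 9.57% of all genes higher without overlap. Among the 9 slow-fibre genes the median was 2.59 and all 9 values were above 0, while the 14 fast-fibre genes had a median of 0.04. Counts under other settings, DESeq2 among them, come here and below without the share of all genes unless stated. They therefore do not set the 54 genes apart from other genes. The count of members was 2 without control replicate 2 or without hydrogel replicate 3, and 3 without hydrogel replicate 2. It was 9 without hydrogel replicate 1 and 17 without control replicate 3. It was 2 with no filter on low counts, 18 with limma-voom, and 0 with only the 2 groups in the fit (4 at an unadjusted p below 0.05) or with day 7 libraries summed (10 at an unadjusted p below 0.05).

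At day 7, 10 genes were higher in hydrogel wounds and none was lower (34 at an unadjusted p below 0.05, and 31 higher with DESeq2). The 10 were Mybpc2, Ckm, Mylk4, Atp2a1, Pygm, Tnnc2, Trim63, Casq1, Fbxo32 and Ckmt2, of which Ckmt2 is named to complete the count. Of all genes tested, 9.86% were higher and 11.7% lower. Before adjustment, p was under 0.05 for 6496 of the 17592, a smaller share than among the 54 genes. The median log2 fold change was 1.84 over the 54 genes and 0.01 over all genes. For 49 of the 54 genes every hydrogel library was above every control library, and for Actc1, Casq2 and Tnni1 every hydrogel library was below; among all genes these shares were 35.3% and 34.9%. With day 7 libraries summed, no member passed and none had an unadjusted p below 0.05, while 51 passed with limma-voom, 52 with only the 2 groups in the fit and 4 with no filter. Leaving out any 1 of the 3 control libraries left 2 genes, and leaving out hydrogel replicate 1, 2 or 3 left 3, 4 and 3. How many of all genes passed in each of these settings is not given here, so the counts are not particular to muscle genes.

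At day 14 the direction of the median was opposite: none of the 54 genes was higher and 2 were lower in hydrogel wounds, Tnnc1 and Igfn1 (9 at an unadjusted p below 0.05, and 7 lower with DESeq2). Of all genes tested, 5.83% were higher and 10.3% lower. Before adjustment, p was under 0.05 for 5653 of the 17592, a larger share than among the 54 genes. The median log2 fold change was -0.73 over the 54 genes and 0.03 over all genes. For 20 genes every hydrogel library was below every control library, against 20% of all genes, and Atp2a2 was the 1 member with every hydrogel library above, against 23.8% of all genes. No member passed without hydrogel replicate 1, 2 or 3 (5 at an unadjusted p below 0.05 each time), 1 passed without control replicate 1 or 2, and none passed with no filter (8 at an unadjusted p below 0.05) or with day 7 libraries summed (5). The count was 4 with only the 2 groups in the fit and 22 with limma-voom.

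**Figure D2:**
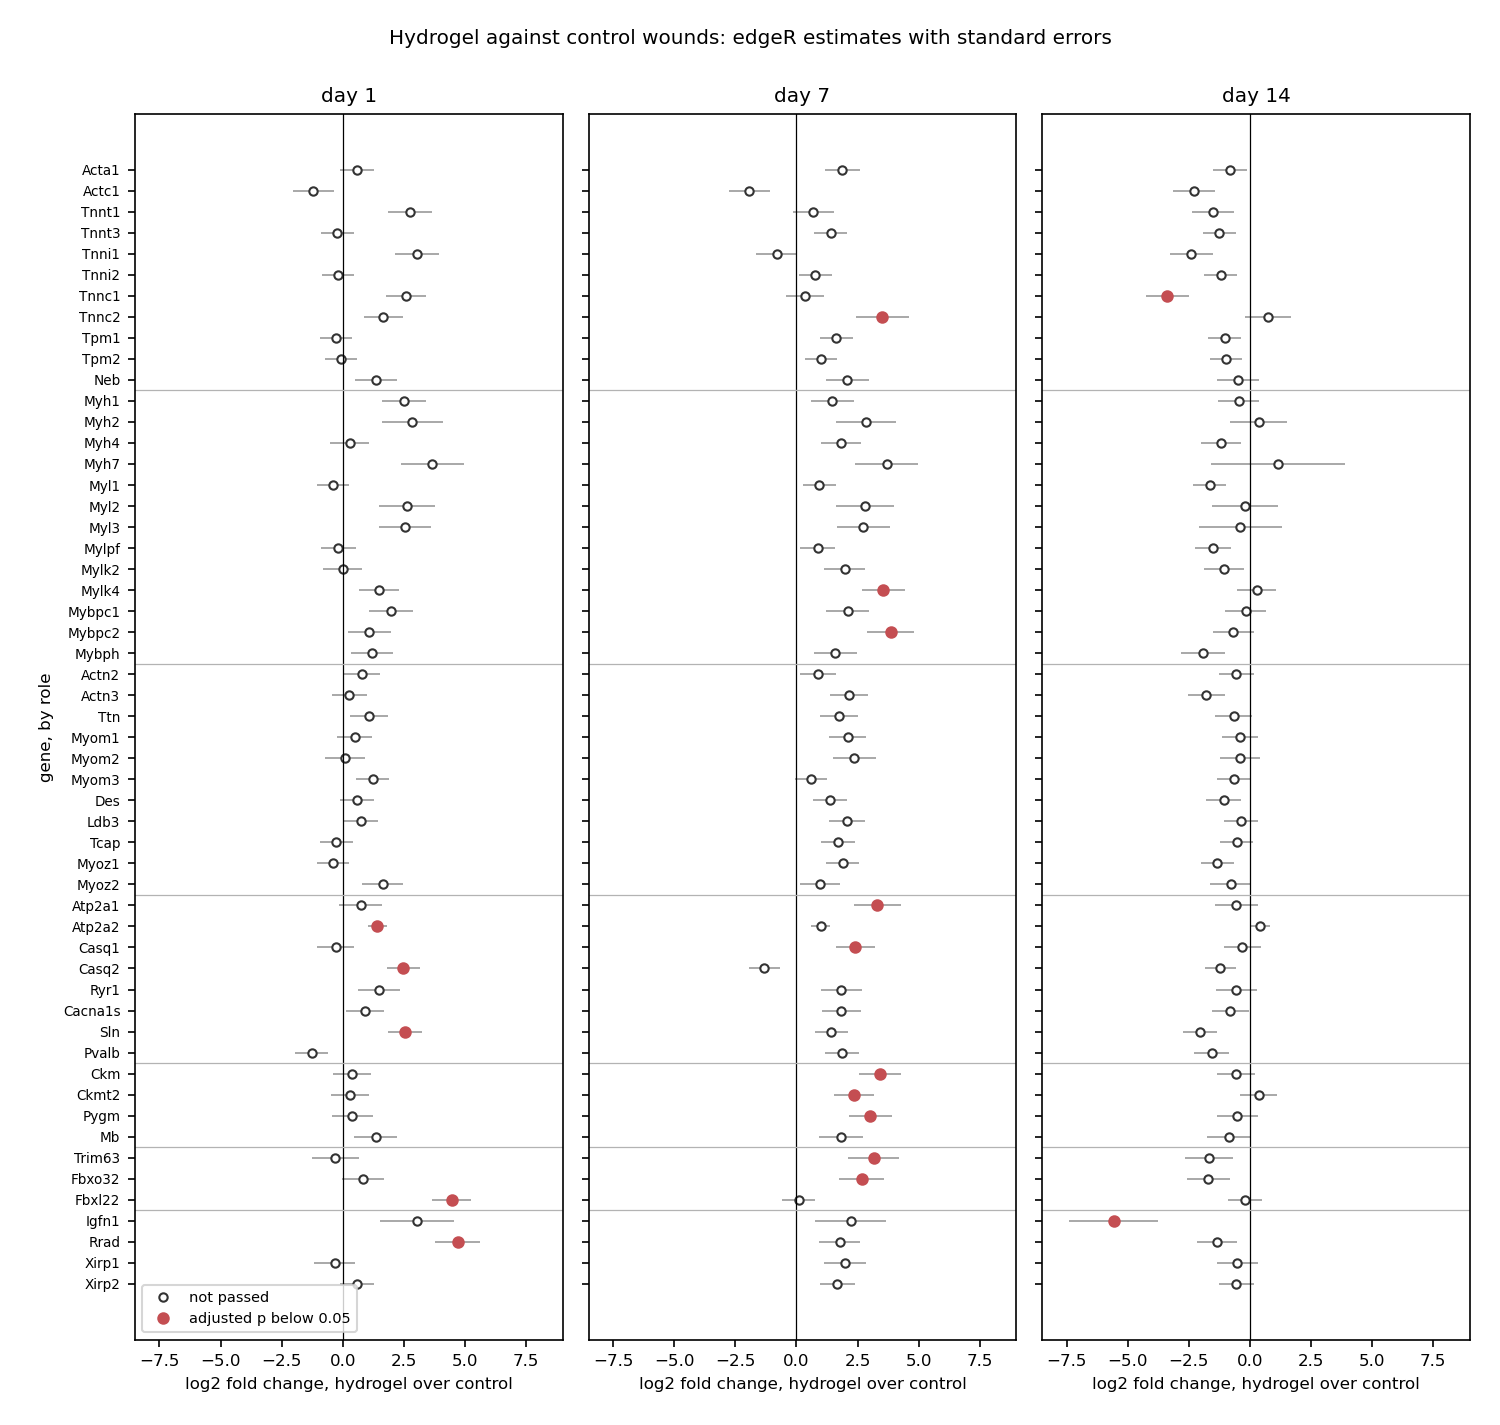
Points are edgeR log2 fold changes of hydrogel over control wounds for 54 genes, grouped by role, and bars are standard errors (3 libraries a group). Filled points passed an adjusted p of 0.05 (5 genes, 10 genes and 2 genes from left to right), and at day 7 only Actc1, Casq2 and Tnni1 lie below 0.

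In control wounds, 4 genes rose from day 1 to day 7 and 17 fell. Casq2, Actc1, Tnni1 and Fbxl22 rose. Trim63, Fbxo32, Ckm, Xirp1 and Mylk2 had the lowest adjusted p among those that fell. Of all genes, 15% rose and 16.6% fell, and the medians were -1.45 over the 54 genes and -0.05 over all. The groups did not overlap for 7 higher and 2 lower members, the 2 being Trim63 and Fbxo32, against 26.1% and 23.8% of all genes. At day 14, 1 gene, Casq2, was higher than at day 1 and 13 were lower, against 16.7% and 15.7% of all genes; the medians were -1.37 and 0.02. Control day 1 replicate 1 weighed on both counts: without it 39 genes passed at day 7 and 39 at day 14. Without control day 1 replicate 2 the counts were 10 and 8. Leaving out any 1 day 7 control library left 10, and leaving out control day 14 replicate 2 or 3 left 9 and 7. With only the 2 groups in the fit, 4 passed at day 7 and none at day 14 (7 at an unadjusted p below 0.05), and with day 7 libraries summed the counts were 0 (9 at an unadjusted p below 0.05) and 5.

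Within hydrogel wounds, 1 gene rose from day 1 to day 7 (Actc1) and 3 fell (Rrad, Trim63 and Fbxo32), against 7.76% and 10.5% of all genes. By day 14, 42 of the 54 genes had fallen from day 1 and none had risen, against 26.1% of all genes that fell and 21.8% that rose. Every day 14 library was below every day 1 library for 45 of the 54 genes, against 29.7% of all genes. The medians from day 1 to day 14 were -2.9 over the 54 genes and -0.07 over all genes. All 9 settings other than a left-out library kept the direction of the 5 genes with the lowest adjusted p (Rrad, Tnnc1, Myl3, Myh7 and Actn3) and kept them past the threshold, and leaving out 1 library gave 35 to 44 genes. With the mean level of 30 other muscle genes as a covariate, the count was 19, of which 7 were higher and 12 lower. In that fit 19.3% of all genes were higher and 22.4% lower. The day 7 counts were 5 without hydrogel day 1 replicate 1, 2 without replicate 2 or 3 of that day, 1 without any 1 day 7 library, and 0 with day 7 libraries summed (2 at an unadjusted p below 0.05). With the covariate 10 genes passed at day 7 (5 higher and 5 lower, against 11.6% and 16.4% of all genes), and with limma-voom 26.

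Among thin filament genes, Acta1, the skeletal alpha-actin and the member with the highest mean TPM (a level per length, scaled to a common total) in each of the 6 wound groups, stood at 2241, 62270 and 47600 CPM in the control day 1 libraries and at 45390, 48150 and 72980 in hydrogel wounds of that day. At day 7 it stood at 9281 to 9395 in controls and 30850 to 37940 in hydrogel wounds, and at day 14 at 12130 to 13980 against 4865 to 10350. At day 1, control replicate 1 lay below all hydrogel libraries and the other control libraries lay among them, and the day 7 and day 14 groups did not overlap. None of the 3 differences passed edgeR's test. Log2 fold changes were 0.57 ± 0.7 (adjusted p = 0.643), 1.88 ± 0.73 (adjusted p = 0.0742) and -0.82 ± 0.71 (adjusted p = 0.45). Here and below, ± gives an SE from the fit of all 18 libraries (3 a group), not from the spread of the 2 groups alone. From day 1 to day 14 Acta1 fell in hydrogel wounds (-2.9 ± 0.75, adjusted p = 0.00604).

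Tnnc1, the troponin C of slow and cardiac muscle, stood at 2.378, 4.928 and 78.32 CPM in control day 1 libraries and at 116.4, 172.5 and 227.7 in hydrogel ones. At day 14 it stood at 15.84, 26.77 and 26.25 CPM in controls and at 2.447, 2.277 and 1.864 in hydrogel wounds. Hydrogel was thus above control in every library pair at day 1, without passing (2.59 ± 0.83, adjusted p = 0.0661), and below at day 14, where the difference passed (-3.38 ± 0.87, adjusted p = 0.0179). Leaving out any 1 hydrogel day 14 library ended that call, with an adjusted p of at most 0.0865. Tnni1 and Tnnt1, the slow troponins I and T, were likewise higher in all hydrogel libraries at day 1 (3.03 ± 0.9, adjusted p = 0.0521, and 2.75 ± 0.89, adjusted p = 0.0698) and lower in all at day 14. Their fast counterparts Tnni2 and Tnnt3 overlapped at day 1, with values of -0.19 ± 0.66 and -0.23 ± 0.68.

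Actc1, the cardiac alpha-actin that is also made by immature skeletal muscle, had a pattern of its own. It stood at 364.4 to 371.3 CPM in control day 7 libraries, 2.514 to 67.48 at control day 1 and 9.457 to 71 at control day 14. In hydrogel wounds it stood at 6.26 to 15.94, 63.34 to 135.4 and 6.355 to 13.53 CPM at days 1, 7 and 14. It rose from day 1 to day 7 in controls by 3.72 ± 0.9 (adjusted p = 0.00731) and in hydrogel wounds by 2.99 ± 0.88 (adjusted p = 0.0299). The first call was lost with only the 2 groups in the fit and both were lost with day 7 libraries summed. The second was also lost without hydrogel day 1 replicate 2 or 3, without any 1 hydrogel day 7 library and with no filter. Tnni1 rose in controls beside it, by 3.62 ± 0.92 (adjusted p = 0.00927), a call lost with only the 2 groups in the fit (adjusted p = 0.0989) or with day 7 libraries summed (adjusted p = 0.181).

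Tnnc2, the fast troponin C, is a gene whose counts say little. Of its 800 exon bases, 74% also lie in exons of Ube2c on the other strand, and reads that fall on both genes are not counted under the settings in the file headers. It stood at 0.06774 to 0.1396 CPM in control day 7 libraries, 4 read pairs in all, and at 0.8401 to 1.364 in hydrogel ones. The difference passed (3.52 ± 1.1, adjusted p = 0.0337), but not without any 1 of the 6 day 7 libraries. Other members shared fewer of their exon bases with other genes, among them Ckm (27.2%), Mybph (24.4%), Atp2a1 (24.1%), Myh7 (13.3%) and Myh1 (8.11%). Myh4 shared none. TPM and the myosin shares use full exon lengths and were not corrected for such overlap.

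Myh4, the fast myosin heavy chain IIb, is a thick filament gene. It stood at 1108, 45570 and 28400 CPM in control day 1 libraries and at 14430, 45310 and 32120 in hydrogel ones. The day 7 values were 5528 to 5684 against 18130 to 21010, and the day 14 values 2640 to 8735 against 1694 to 3125. None of its hydrogel comparisons passed (0.29 ± 0.8, 1.82 ± 0.82 and -1.19 ± 0.81, adjusted p of 0.85, 0.121 and 0.326), and the day 7 groups alone did not overlap. Myh1, the IIx heavy chain, stood at 48.38, 589.9 and 1756 CPM in control day 1 libraries and at 1743, 5453 and 6382 in hydrogel ones (2.5 ± 0.9, adjusted p = 0.094). At days 7 and 14 Myh1 differed by 1.47 ± 0.87 (adjusted p = 0.23) and -0.46 ± 0.85 (adjusted p = 0.744). Myh2, the IIa chain, stood at 1.902, 63 and 501.7 CPM at control day 1 and at 125.2, 1779 and 2163 at hydrogel day 1, with differences of 2.84 ± 1.24, 2.84 ± 1.24 and 0.35 ± 1.16 at days 1, 7 and 14, none of which passed (adjusted p of 0.161, 0.111 and 0.861).

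Myh7, the slow heavy chain, was all but missing from some groups. It stood at 0.3397, 0.1516 and 46.51 CPM in control day 1 libraries, so that nearly all of the counts came from replicate 3, and at 33.34, 250.8 and 310.8 in hydrogel ones (3.66 ± 1.29, adjusted p = 0.0903). At day 7 it stood at 7.384 to 9.147 CPM in controls and at 98.88 to 114.2 in hydrogel wounds, with no overlap (3.69 ± 1.3, adjusted p = 0.0548). The 3 control libraries of day 14 held 3 read pairs together and those of hydrogel day 14 held 10, a ratio of 2.41 with an exact 95% interval of 0.62 to 13.6 that covers counting error only. Myh7 fell in hydrogel wounds from day 1 to day 14, from 11161 read pairs to 10 (-10.67 ± 1.87, adjusted p = 0.000514). In controls it fell from 741 to 3 (adjusted p = 0.00604), a ratio of day 14 to day 1 of 0.00283. Its exact 95% interval of 0.000583 to 0.00831 covers counting error only, and 734 of the 741 read pairs came from replicate 3. Without control day 1 replicate 3 that call was lost (adjusted p = 0.297), as it was with limma-voom and with only the 2 groups in the fit. Myl3, the slow essential light chain, fell with it in hydrogel wounds (-9.13 ± 1.51, adjusted p = 0.000361) and in controls (-6.21 ± 1.41, adjusted p = 0.00437, and 0.14 without control day 1 replicate 3). Its day 14 groups held 14 and 15 read pairs.

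As a share of the summed TPM of the 4 adult heavy chains, Myh4 took 93.1% to 98.7% in control day 1 libraries and 80% to 89.1% in hydrogel ones. At day 7 it took 72.3% to 73.2% and 72% to 79.6%. At day 14 the libraries spread widely, with 64.4%, 49.3% and 79.6% in controls and 30.3%, 52.4% and 78.9% in hydrogel wounds. Myh1 took most of the rest, 1.2% to 5.41% at control day 1 and 9.84% to 14.9% at hydrogel day 1, with no overlap, and 25.4% to 26.4% at control day 7. Its share reached 59.7% in hydrogel day 14 replicate 1. Myh2 stayed at or below 9.99% and Myh7 at or below 0.537% in each of the 18 libraries. These shares are descriptions with no test.

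**Figure D3:**
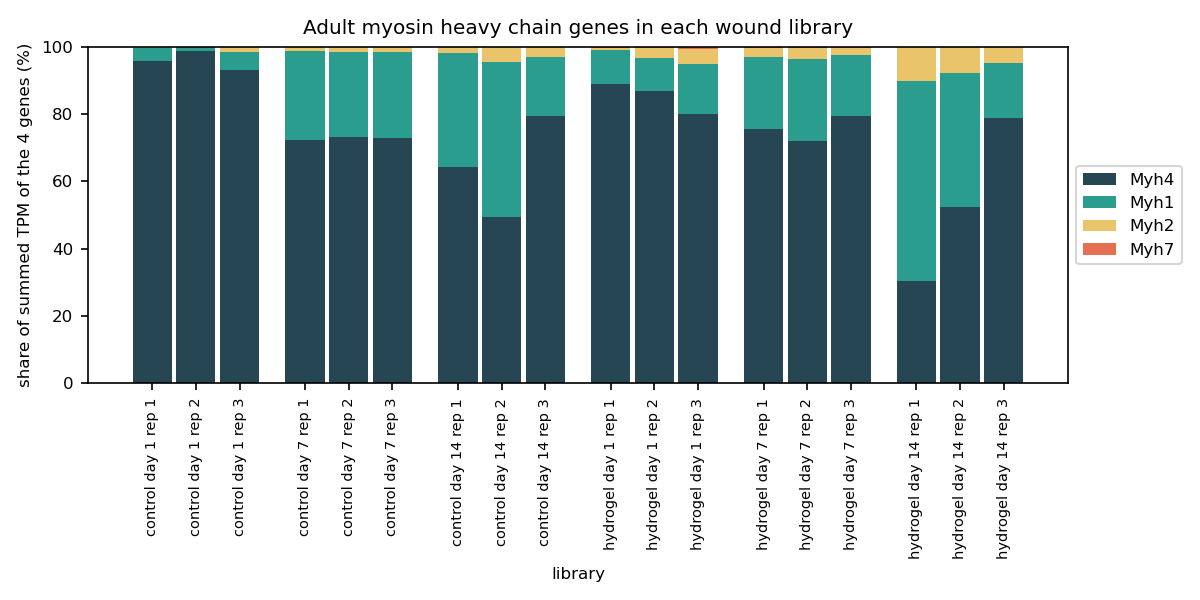
Bars show, for each wound library, the share in percent of the summed TPM of Myh4, Myh1, Myh2 and Myh7 taken by each gene. Myh4 takes 80% to 98.7% in day 1 libraries and between 30.3% and 79.6% at day 14, where libraries of 1 group differ most.

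Mybpc2, the fast myosin-binding protein C, had the lowest adjusted p among members at day 7. It stood at 245.8, 251.8 and 246.7 CPM in control libraries and at 3741, 3085 and 3944 in hydrogel ones, a difference of 3.85 ± 0.95 (adjusted p = 0.0116). The call held without each day 7 library (adjusted p of at most 0.0483) and was lost with day 7 libraries summed (adjusted p = 0.717). The day 1 and day 14 groups of Mybpc2 overlapped (1.09 ± 0.86, adjusted p = 0.445, and -0.68 ± 0.85, adjusted p = 0.616). Mylk4, a myosin light chain kinase family member, stood at 22.76 to 26.96 CPM in control and 231.8 to 350.4 CPM in hydrogel wounds at day 7 (3.56 ± 0.89, adjusted p = 0.0123, and 0.0514 at most without 1 control library, replicate 1 or 3 ending the call). Of the 13 thick filament genes, 2 were higher at day 7, against 9.86% of all genes, and all 13 had values above 0. None of the 13 passed at day 1 or day 14 (6 and 2 at an unadjusted p below 0.05).

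None of the 11 Z-disc, M-band and titin genes passed in a hydrogel comparison (0, 7 and 1 at an unadjusted p below 0.05 at days 1, 7 and 14). All 11 lay above control without overlap at day 7, where 35.3% of all genes did. Their median was 1.75. Ttn, the giant spring of the sarcomere, stood at 178.7, 6088 and 4414 CPM in control day 1 libraries and at 2822, 10130 and 9500 in hydrogel ones. At day 7 it stood at 1353 to 1376 against 4280 to 4773, and at day 14 at 1036 to 2072 against 733.2 to 1454. Its differences were 1.07 ± 0.76, 1.75 ± 0.78 and -0.67 ± 0.76 (adjusted p of 0.394, 0.116 and 0.574). Actn3, the alpha-actinin of fast fibres, fell in hydrogel wounds from day 1 to day 14 (-4.73 ± 0.85, adjusted p = 0.000593), from 4138, 9749 and 10760 CPM to 315.8, 300.5 and 311. Of this group, 7 of 11 fell over that interval and none rose, against 26.1% and 21.8% of all genes.

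Calcium-handling genes gave 3 of the 5 calls at day 1. Sln, sarcolipin, an inhibitor of the SERCA pumps, stood at 2.31, 26.16 and 67.61 CPM in controls and at 204.4, 120.7 and 237.1 in hydrogel wounds (2.55 ± 0.7, adjusted p = 0.04). Casq2, the calsequestrin of slow and cardiac muscle, stood at 0.8153, 5.61 and 10.39 against 18.22, 13.2 and 61.69 CPM (2.47 ± 0.67, adjusted p = 0.039). Atp2a2, the SERCA2 pump of slow muscle that is also made outside striated muscle, stood at 215.2, 115.9 and 250.4 against 170, 694.3 and 671.3 CPM (1.4 ± 0.39, adjusted p = 0.0421). The first pair did not overlap between groups, while hydrogel replicate 1 of Atp2a2 lay inside the control range. Leaving out control replicate 2 or hydrogel replicate 3 ended each of the 3 calls, with adjusted p up to 0.206 for Casq2, 0.113 for Sln and 0.152 for Atp2a2. Hydrogel replicate 2 ended those of Sln and Atp2a2, and control replicate 1 that of Atp2a2.

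At day 7 the fast-fibre pump and store protein passed as higher. Without passing, Sln also lay above all control libraries at day 7 (108.7 to 178.1 against 52.43 to 53 CPM). So did Atp2a2 (248.2 to 277.4 against 129.2 to 136.4 CPM). Of the 8 calcium-handling genes, 7 lay above control without overlap and 1 below, against 35.3% and 34.9% of all genes. Atp2a1, the SERCA1 pump, stood at 1077 to 1093 CPM in controls and at 9160 to 11480 in hydrogel wounds (3.3 ± 0.96, adjusted p = 0.0247). Casq1, the fast calsequestrin, stood at 371.3 to 377.7 and 1832 to 2086 CPM (2.41 ± 0.8, adjusted p = 0.0432). Casq1 lost its call without any 1 of the 6 libraries, and Atp2a1 without 5 of them, hydrogel replicate 2 being the exception. Atp2a1 at days 1 and 14 differed by 0.73 ± 0.88 (adjusted p = 0.635) and -0.55 ± 0.88 (adjusted p = 0.704). Casq2 was at its highest in control day 7 wounds, at 86.05 to 95.17 CPM against 35.28 to 37.48 in hydrogel wounds, a difference that did not pass (-1.31 ± 0.64, adjusted p = 0.15). It rose in controls from day 1 to day 7 by 4.01 ± 0.72 (adjusted p = 0.00129, and 0.0907 with day 7 libraries summed) and was higher at day 14 than at day 1 by 2.57 ± 0.68 (adjusted p = 0.0102, and 0.143 with only the 2 groups in the fit).

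Of the 4 energy-supply genes, 3 were higher in hydrogel wounds at day 7, against 9.86% of all genes. Ckm, the muscle creatine kinase, stood at 768.3, 777.5 and 802.1 CPM in controls and at 8726, 6961 and 9475 in hydrogel wounds, a 10.7-fold difference (3.42 ± 0.85, adjusted p = 0.0121, and 0.0505 without control replicate 2). Pygm, the muscle glycogen phosphorylase, stood at 565 to 586.6 against 4411 to 4952 CPM (3.03 ± 0.89, adjusted p = 0.0266, and up to 0.0849 without 1 library, each of the 6 ending the call). Ckmt2, the sarcomeric mitochondrial creatine kinase, differed by 2.36 ± 0.81 (adjusted p = 0.0494). At day 1 Ckm spanned 479.6 to 22820 CPM in controls and 6564 to 21550 in hydrogel wounds and did not pass (0.36 ± 0.78, adjusted p = 0.806), nor did it at day 14 (-0.57 ± 0.78, adjusted p = 0.649). Ckm fell in controls from day 1 to day 7 (-3.95 ± 0.87, adjusted p = 0.0045, and 0.254 with day 7 libraries summed), although control day 1 replicate 1 lay below the day 7 libraries.

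**Figure D4:**
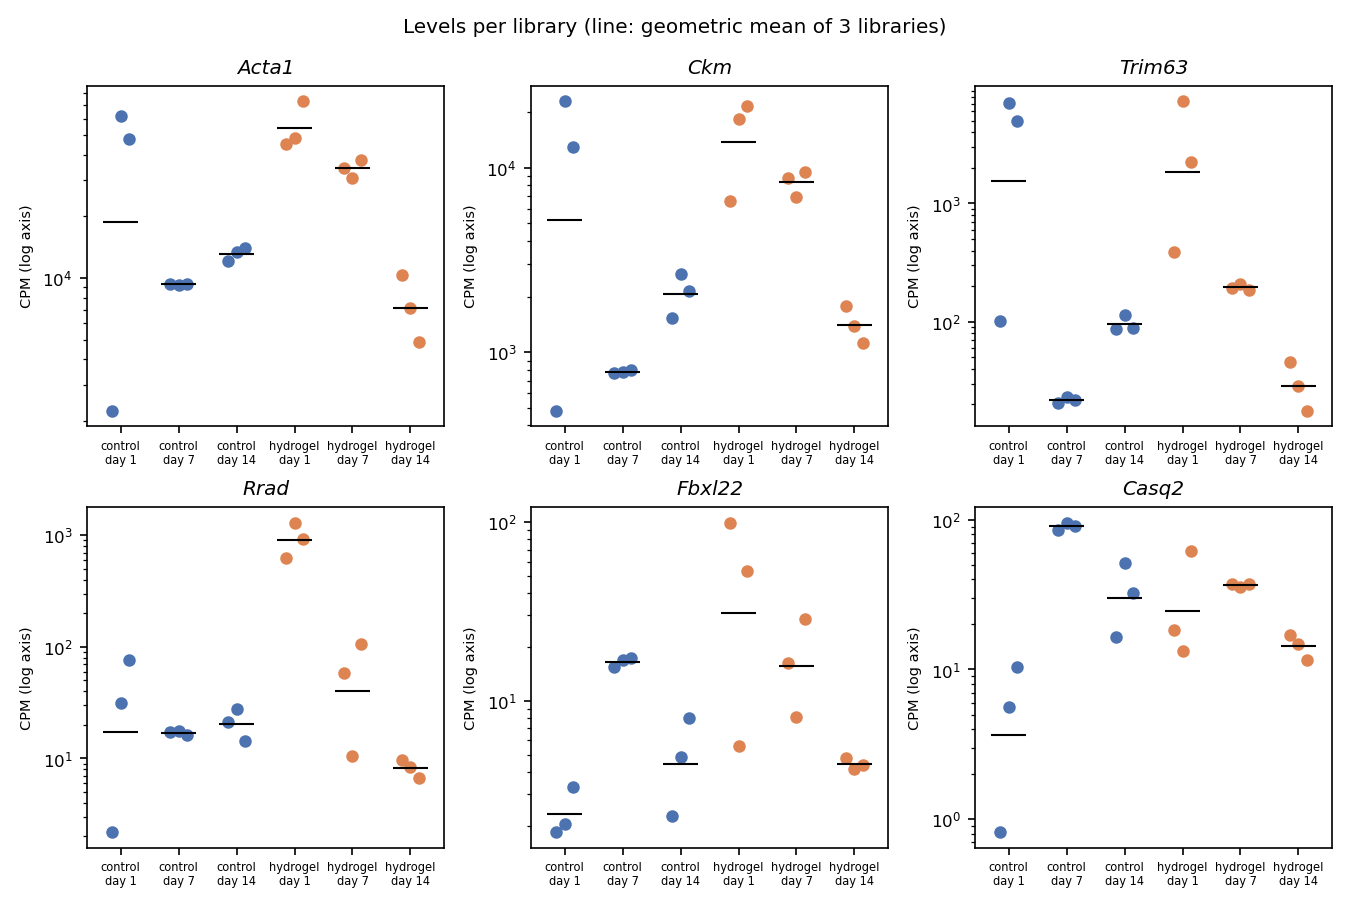
Points are CPM per library on a log axis for 6 genes in the 6 wound groups, and lines are geometric means of 3 libraries. Trim63 spans 17.64 to 7283 CPM, Rrad is high in the 3 hydrogel day 1 libraries, and Casq2 is highest in control day 7 libraries.

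Trim63 stood at 102.5, 7057 and 5018 CPM in control day 1 libraries and at 389, 7283 and 2232 in hydrogel ones, with no difference that passed (-0.3 ± 0.96, adjusted p = 0.873). At day 7 it stood at 20.6, 22.96 and 21.71 CPM in controls and at 193.7, 206.8 and 185.9 in hydrogel wounds, an 8.98-fold difference (3.17 ± 1.04, adjusted p = 0.0417). Leaving out any 1 of the 6 libraries ended that call (adjusted p up to 0.12), as did the covariate. At day 14 it stood at 86.63 to 115.2 against 17.64 to 45.83 CPM, without overlap and without passing (-1.66 ± 0.98, adjusted p = 0.258). Trim63 fell from day 1 to day 7 in controls (-7.54 ± 1.27, adjusted p = 0.000922) and in hydrogel wounds (-4.08 ± 1.08, adjusted p = 0.0201). The control call held without each library in turn, and the adjusted p with day 7 libraries summed was 0.171 in controls and 0.496 in hydrogel wounds. The hydrogel call was lost without hydrogel day 1 replicate 2 or any 1 hydrogel day 7 library and with no filter. Between day 1 and day 14 Trim63 fell in controls (-5.39 ± 1.15, adjusted p = 0.00315), lost with only the 2 groups in the fit.

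Fbxo32 moved beside it. It stood at 56.73, 2195 and 1804 CPM in control day 1 libraries and at 444.7, 4371 and 2424 in hydrogel ones (0.84 ± 0.86, adjusted p = 0.573), and at 42.47 to 44.97 against 208.6 to 345 CPM at day 7 (2.67 ± 0.91, adjusted p = 0.0486). The day 7 call was lost without any 1 of the 6 libraries (adjusted p up to 0.13). At day 14 its values were 115.3 to 190.7 and 21.86 to 67.02 CPM (-1.71 ± 0.88, adjusted p = 0.194). It fell from day 1 to day 7 in controls (-4.94 ± 1.01, adjusted p = 0.00294, and 0.224 with day 7 libraries summed) and in hydrogel wounds (-3.11 ± 0.93, adjusted p = 0.0317). Without hydrogel day 1 replicate 2 or 3, any 1 hydrogel day 7 library or the filter, the second call was lost (adjusted p up to 0.134 without a library).

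Fbxl22, an F-box protein of the Z-disc, stood at 1.835, 2.047 and 3.295 CPM in control day 1 libraries and at 98.72, 5.576 and 53.36 in hydrogel ones. The groups did not overlap, and hydrogel replicate 2 lay close to the controls. The difference passed (4.45 ± 0.79, adjusted p = 0.00657) and held without each library (adjusted p of at most 0.0284), and its adjusted p was up to 0.313 among the other settings, with only the 2 groups in the fit or with day 7 libraries summed ending it. At days 7 and 14 it differed by 0.1 ± 0.68 (adjusted p = 0.935) and -0.19 ± 0.69 (adjusted p = 0.874). In controls it rose from day 1 to 15.39, 17 and 17.25 CPM at day 7 (2.78 ± 0.74, adjusted p = 0.0118, and 0.179 with day 7 libraries summed).

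Rrad, a small GTPase of the RGK family that inhibits calcium channels and is found in regenerating muscle, stood at 2.174, 31.46 and 76.04 CPM in control day 1 libraries and at 625.9, 1288 and 928.3 in hydrogel ones. Every hydrogel library was above every control library, a 25.9-fold difference (4.69 ± 0.94, adjusted p = 0.0112) that held without each library (adjusted p of at most 0.0411). It was lost with only the 2 groups in the fit or with day 7 libraries summed (adjusted p up to 0.315). At day 7 Rrad stood at 16.2 to 17.61 CPM in controls and at 58.43, 10.58 and 105.4 in hydrogel wounds, and at day 14 at 14.47 to 27.96 against 6.733 to 9.749, neither of which passed (1.77 ± 0.83, adjusted p = 0.136, and -1.35 ± 0.83, adjusted p = 0.274). In hydrogel wounds it fell from day 1 to day 7 (-4.03 ± 0.91, adjusted p = 0.00987, lost with day 7 libraries summed) and to day 14 (-6.83 ± 1.04, adjusted p = 0.000209).

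Igfn1, a Z-disc protein of the immunoglobulin and fibronectin type, ranged more widely than its group means can show. It stood at 2.718, 3.336 and 405.7 CPM at control day 1 and at 135.3, 2301 and 918.6 at hydrogel day 1, which overlapped (3.03 ± 1.5, adjusted p = 0.217). At day 14 it stood at 2.263, 32.85 and 1.832 CPM in controls and at 0.2763, 0.3119 and 0.1726 in hydrogel wounds (22 read pairs together). That difference passed (-5.57 ± 1.82, adjusted p = 0.0489), and leaving out any day 14 library but control replicate 3 ended it (adjusted p up to 0.244). At day 7 it differed by 2.23 ± 1.45 (adjusted p = 0.278). Xirp1 and Xirp2, actin-binding Xin repeat proteins of stressed and repairing muscle, did not pass in a hydrogel comparison. Xirp1 stood at 32.61, 1274 and 1791 CPM at control day 1, 249.4, 1408 and 811.3 at hydrogel day 1, and 54.12 to 59.56 against 171.5 to 279.9 at day 7 (-0.33 ± 0.83 and 1.98 ± 0.86, adjusted p of 0.836 and 0.108). Xirp2 differed by 0.58 ± 0.71, 1.68 ± 0.72 and -0.56 ± 0.71 at days 1, 7 and 14 (adjusted p of 0.64, 0.106 and 0.62). Xirp1 fell in controls from day 1 to day 7 (-4.17 ± 0.94, adjusted p = 0.00507, and 0.256 with day 7 libraries summed), where control day 1 replicate 1 lay below all day 7 libraries.

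Most of the spread was shared with muscle genes outside the set. Over the 18 libraries, which share 6 groups, depth and scaling, the log2 level of Ttn and of Cacna1s had a correlation of 0.99 with the mean of 30 other skeletal muscle genes (such as Eno3, Trdn and Klhl41), and Acta1 of 0.98. The lowest values were 0.42 for Mylk4, 0.38 for Fbxl22, 0.29 for Casq2 and 0.14 for Actc1. The 30 genes had medians of 0.74, 1.64 and -0.71 in the hydrogel comparisons of days 1, 7 and 14, beside 0.81, 1.84 and -0.73 for the 54. With their mean log2 level as a covariate, the medians of the 54 genes were 0.02, 0.07 and -0.18. At day 1, 4 members were then higher and 3 lower, against 7.23% and 4.25% of all genes. At day 7, 5 were higher and 2 lower, against 4.99% and 5.8%. At day 14, 1 was higher and 7 lower, against 11.3% and 16.2%. In that fit Rrad (4.07, adjusted p = 0.00356), Fbxl22 (4.43, adjusted p = 0.00615), Sln (2.1, adjusted p = 0.0108) and Casq2 (1.63, adjusted p = 0.0351) stayed higher in hydrogel wounds at day 1, while Myom2 (-0.8, adjusted p = 0.0167), Xirp1 (-1.26, adjusted p = 0.0372) and Pvalb (-1.53, adjusted p = 0.0409) passed as lower. Mybpc2, Ckm, Mylk4, Atp2a1 and Pygm stayed higher at day 7 while the other 5 calls were lost. Actc1 and Casq2 passed as lower at day 7 in that fit, and Tnnc1 and Igfn1 stayed lower at day 14. At day 14 Myl1, Actn3, Myoz1, Sln and Fbxo32 also passed as lower, and Ckmt2 passed as higher (0.95, adjusted p = 0.00592). Members that passed only in that fit are named here after their values were seen.

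Relative to the mean log2 level of the 30 genes in the same library, Trim63 stood at 2.68, 4.06 and 3.87 in control day 1 libraries and between -2.08 and -1.91 at control day 7. In hydrogel wounds the values were 0.78, 3.94 and 1.78 at day 1, -0.61 to -0.45 at day 7 and -1.46 to -1.07 at day 14. Fbxo32 went from 1.83 to 2.4 at control day 1 to between -1.05 and -0.97 at control day 7. Both ligases therefore lay lower at day 7 than at day 1 also against other muscle genes, with no overlap in either arm. Rrad stood at 0.52 to 1.47 on this scale in hydrogel day 1 libraries and between -4.67 and -1.42 in all 15 others. Casq2 stood between -0.04 and 0.11 at control day 7 and at or below -1.32 in all others. Tnnc1 stood at -5.05 to -4.4 at hydrogel day 14 and at -2.33 to -2.08 at control day 14, while it lay at -6.29 in control day 1 replicate 2, where Myh7 stood at -9.35. Acta1 kept within 6.61 to 7.65 in all 18 libraries.

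**Figure D5:**
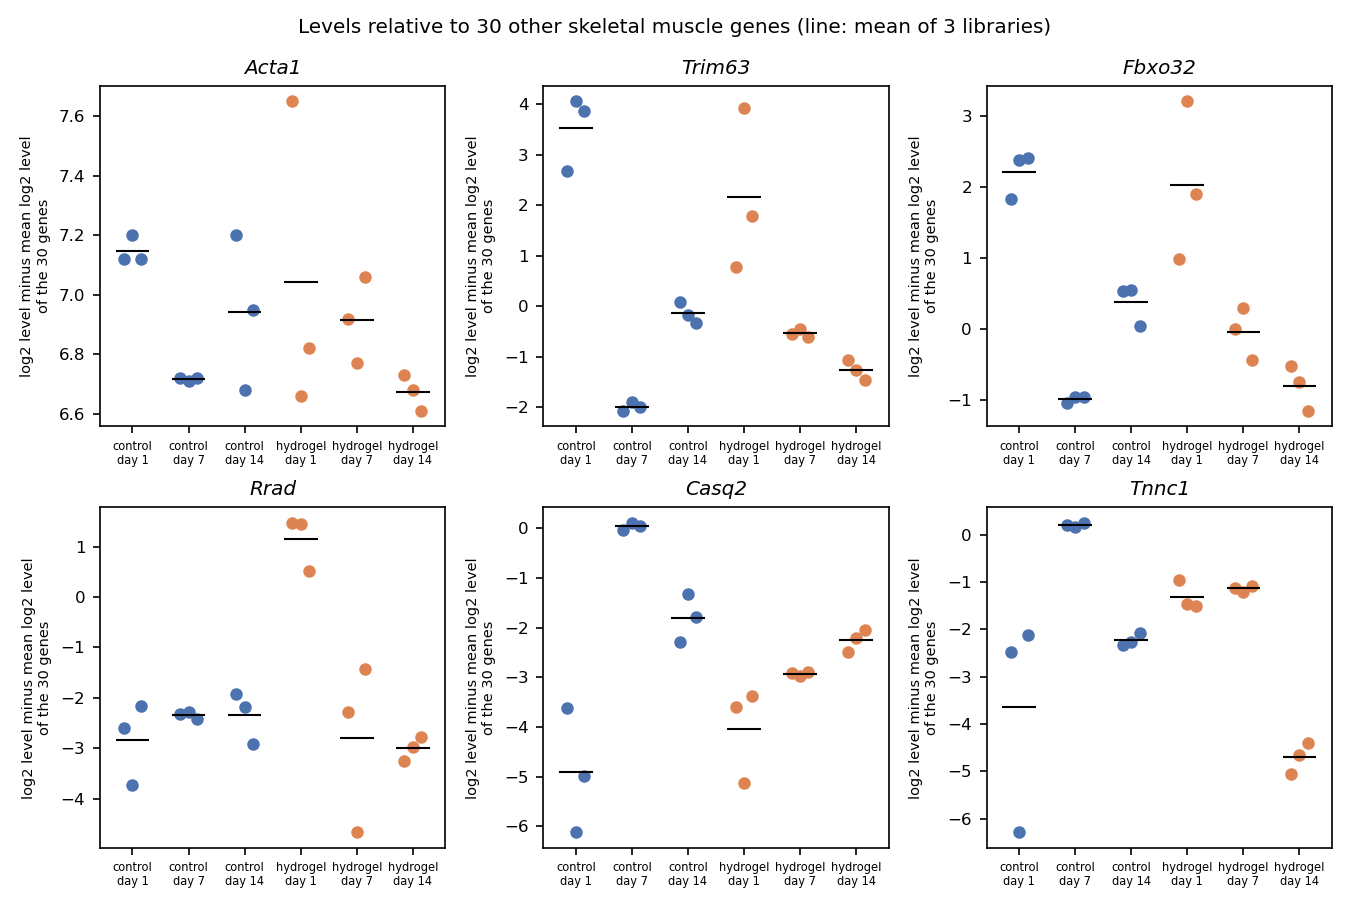
Points are log2 levels of 6 genes minus the mean log2 level of 30 other skeletal muscle genes in the same wound library, by group, and lines are means of 3 libraries. Acta1 spans 6.61 to 7.65, Trim63 and Fbxo32 are highest at day 1, Rrad is highest in hydrogel day 1 libraries and Casq2 in control day 7 libraries.

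The effect of hydrogel differed between days for 9 of the 54 genes by the test of that difference. That share was close to the 15.8% of all genes. Fbxl22 (adjusted p = 0.0113), Tnnc1 (adjusted p = 0.0116), Rrad (adjusted p = 0.0127), Sln (adjusted p = 0.0137) and Casq2 (adjusted p = 0.0181) had the lowest values. All 5 had their highest hydrogel effect at day 1. The effect of Rrad was lower by 2.93 on the log2 scale at day 7 and by 6.04 at day 14 than at day 1, and that of Tnnc1 by 2.25 and 5.97. Among the 9 slow-fibre genes 3 passed, and among the 14 fast-fibre genes 2. Without control day 1 replicate 1 the test called 42 members, and leaving out replicate 1 or 3 of the hydrogel arm at that day gave 14 and 5; with day 7 libraries summed it called none (8 at an unadjusted p below 0.05), with DESeq2 20 and with limma-voom 47.

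Other genes of wasting and stressed muscle were counted from lists. Of 18 further atrophy genes, 11 fell and 1 rose in controls from day 1 to day 7, where 16.6% of all genes fell and 15% rose. In hydrogel wounds from day 1 to day 14, 12 fell and 1 rose, where 26.1% of all genes fell and 21.8% rose. Cdkn1a, a cell-cycle inhibitor, fell in controls by 2.78 ± 0.27 on the log2 scale from day 1 to day 7 (adjusted p = 2.71e-05), and Pdk4, a kinase that holds back glucose oxidation, fell by 5.24 ± 0.94 (adjusted p = 0.00136). Mstn, myostatin, an inhibitor of muscle growth, was higher in hydrogel wounds at day 7 (2.72 ± 0.85, adjusted p = 0.034). Of 16 stress and denervation genes, 9 fell and 2 rose in controls by day 7; Chrng, the fetal acetylcholine receptor subunit, rose by 7.56 ± 0.97 (adjusted p = 0.000194) and Ncam1 by 2.98 ± 0.45 (adjusted p = 0.000469). Several genes of both lists are also made outside muscle.

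Of 13 genes of muscle regeneration, 7 rose and none fell in controls from day 1 to day 7, against 15% and 16.6% of all genes, with Myl4 up by 4.97 ± 0.48 (adjusted p = 2.38e-05) and Mymx, a fusion protein of myoblasts, by 5.78 ± 0.76 (adjusted p = 0.00022). In hydrogel against control wounds, 4 were higher at day 1, among them Myod1 (4.14 ± 0.87, adjusted p = 0.0141), against 4.53% of all genes. At day 7, 5 of 13 were lower and 1 higher, against 11.7% and 9.86% of all genes. At day 14, 5 were lower, against 10.3% of all genes. The effect of hydrogel differed between days for 10 of the 13, against 15.8% of all genes.

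Markers of other cells moved with the same comparisons. Among all genes tested, 9.86% were higher and 11.7% lower in hydrogel wounds at day 7. The share lower at day 14 was 10.3%, and the shares at day 1 were 4.53% higher and 3.02% lower. At day 7, 8 of 8 macrophage, 8 of 10 adipocyte, 7 of 8 fibroblast and 7 of 8 endothelial markers were lower and 6 of 8 basal keratinocyte markers were higher in hydrogel wounds. The summed adipocyte level was 29850 to 30500 CPM in control and 4877 to 5945 CPM in hydrogel wounds at day 7, and the summed macrophage level 1332 to 1342 and 198.7 to 205.1 CPM. At day 14 all 8 macrophage markers were lower, with sums of 217.8 to 2015 against 40.22 to 60.35 CPM, as were 7 of 8 fibroblast, 4 of 8 endothelial and 3 of 5 neutrophil markers tested. At day 1, 2 of 5 neutrophil markers, 2 of 8 fibroblast markers and 1 of 8 macrophage markers were higher, and 1 each of the adipocyte, basal keratinocyte and endothelial markers was lower. None of 7 smooth muscle markers tested passed in the 3 hydrogel comparisons (0, 2 and 0 at an unadjusted p below 0.05). Their part in the muscle gene differences was not tested.

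In RAW264.7 cells, 19 of the 54 genes had no read pair in any of 6 libraries, Acta1, all 4 adult myosin heavy chains and Trim63 among them. A level above 10 CPM in any library was reached by 4 genes, Atp2a2 (724.3 to 992.1 CPM), Tpm1 (184.4 to 205.8), Tnni2 (31.18 to 40.78) and Ryr1 (5.374 to 12.13). These 4 were named after their values were seen.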

How the data were processed

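RNA-seq was deposited for 18 wound and 6 RAW264.7 libraries. Per the file headers, the authors counted read pairs over exons by gene name with featureCounts 2.0.6 and the GENCODE vM25 annotation of GRCm38.p6, with no strand or overlap option, and deposited raw counts per gene. Per the submitters' processing notes, Trim Galore 0.6.10, FastQC 0.11.9, HISAT2 2.2.1 and SAMtools 1.9 were also used. Members and gene lists were chosen with earlier results of these data known.

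One edgeR 4.0.16 quasi-likelihood fit (R 4.3.3, TMM scaling, filterByExpr with a minimum count of 10 and minimum total of 15, robust) covered the 18 wound libraries with 6 group means and 12 residual degrees of freedom. P-values were Benjamini-Hochberg adjusted over 17592 genes, with a threshold of 0.05. CPM are TMM-scaled, and TPM use the exon lengths in the files. An SE is the size of the log2 fold change divided by the square root of the F value of its test. A fold change of a gene near 0 depends on the prior count.

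Genes were named by rule: 18 members in the hydrogel comparisons whatever their result, up to 8 called members a direction there, 5 a direction between days and 5 for the difference between days, and up to 3 genes of each other list. Alternatives were DESeq2 1.42.0, limma-voom (3.58.1), other scalings, filters and samples, and the mean log2(CPM + 0.5) of 30 other muscle genes as a covariate. On counts simulated for the day 7 hydrogel comparison over 17592 genes, 78.5% of 200 genes changed by 2 on the log2 scale were recovered, and 3.09% of 162 calls were unchanged genes. The simulated libraries were drawn independently around a mean per gene over the 18 wound libraries, unlike the nearly alike day 7 libraries. These rates check the procedure and do not give the share of false calls at day 7.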

Additional observations from a re-analysis of the deposited data

Results flagged for a closer look

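For 9 of the 54 genes the effect of hydrogel differed between days 1, 7 and 14 by the edgeR test of that difference. That share was close to the 15.8% of all genes. The 9 were Fbxl22 (adjusted p = 0.0113), Tnnc1 (adjusted p = 0.0116), Rrad (adjusted p = 0.0127), Sln (adjusted p = 0.0137), Casq2 (adjusted p = 0.0181), Tnni1 (adjusted p = 0.0212), Igfn1 (adjusted p = 0.0403), Pvalb (adjusted p = 0.0412) and Actn3 (adjusted p = 0.0492). The log2 effect at day 7 minus that at day 1 was -4.35 for Fbxl22, -3.83 for Tnni1 and -3.77 for Casq2. It was 3.16 for Pvalb, a calcium buffer of fast fibres, and 1.88 for Actn3. At day 14 minus day 1 it was -8.59 for Igfn1, -5.44 for Tnni1, -4.59 for Sln and -2.05 for Actn3. None of the 9 passed with day 7 libraries summed, where 8 members had an unadjusted p below 0.05.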

How the results depend on the processing

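At day 1 the 5 calls became 2 with no filter, 9 with DESeq2, 18 with limma-voom and 0 with only the groups compared (4 at an unadjusted p below 0.05) or with day 7 libraries summed (10), and were 2 to 17 with 1 library left out. At day 7 the 10 calls became 4, 31, 51, 52 and 0 (none at an unadjusted p below 0.05) in those settings, and 2 to 4 with 1 library left out. At day 14 the 2 calls became 0 (8 at an unadjusted p below 0.05), 7, 22, 4 and 0 (5), the covariate gave 8, and the range was 0 to 2 with 1 library left out. In controls, the 21 calls from day 1 to day 7 became 13 with no filter, 38 with limma-voom, 4 with only the groups compared and 0 with day 7 summed (9), and 10 to 39 with 1 library left out. The 14 calls to day 14 became 7 with no filter, 24 with DESeq2, 27 with limma-voom, 0 with only the groups compared (7), 5 with day 7 summed and 23 with the covariate, and 7 to 39 with 1 library left out. In hydrogel wounds, the 4 calls to day 7 became 1 with no filter, 26 with limma-voom, 0 with day 7 summed (2) and 10 with the covariate, and 1 to 5 with 1 library left out. The 42 calls to day 14 became 19 with the covariate and were 35 to 44 with 1 library left out. The 9 genes whose effect differed between days became 4 with no filter, 20 with DESeq2, 47 with limma-voom, 0 with day 7 summed (8) and 16 with the covariate, and 5 to 42 with 1 library left out. The causes were not tested.

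With the replicate number as a block the counts were 6, 11 and 1 in the hydrogel comparisons, 17 and 11 in controls, 5 and 41 in hydrogel wounds and 6 for the difference between days. Correlations of same-numbered libraries between arms of the same day were -0.02 to 0.37, and those of differently numbered libraries -0.36 to 0.23. With 3 libraries a group, these values cannot tell whether same-numbered libraries are paired. The block turned Fbxl22 at day 7 to -0.08. It ended the calls of Atp2a2 at day 1 (adjusted p = 0.0611) and Igfn1 at day 14 (adjusted p = 0.0719), and Tnnc1 at day 1 (adjusted p = 0.0436) and Myh7 at day 7 (adjusted p = 0.0349) passed with it.

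Signs that turned were of log2 fold changes that had not passed. With the covariate at day 1 they were -0.38 for Myh4, -0.45 for Ckm, -0.32 for Atp2a1, -0.21 for Fbxo32 and -0.26 for Xirp2. At day 7 they were -0.35 for Myh1, -0.06 for Myh2, -1.09 for Tnnc1, -0.07 for Ttn and for Xirp1, -0.01 for Xirp2 and -0.27 for Igfn1. At day 14 they were 0.12 for Myh1, 0.14 for Ckm, 0.31 for Atp2a1, 0.25 for Mybpc2, 0.21 for Xirp1 and 0.05 for Xirp2. Limma-voom gave -0.05 for Fbxl22 at day 7 and -0.15 for Myh2 at day 14. With 1 library left out, day 1 values ran from -0.27 to 1.05 for Myh4 (negative without control replicate 1 and, at -0.1, hydrogel replicate 2). They ran from -0.21 to 1.21 for Ckm, -1.63 to 0.37 for Trim63 and -0.96 to 0.34 for Xirp1, the last pair being also above 0, at 0.23 and 0.1, without hydrogel replicate 1. At day 7 Fbxl22 ran from -0.44 to 0.44. At day 14 the ranges were -0.54 to 0.31 for Fbxl22, -1.13 to 0.22 for Myh1, -0.11 to 0.89 for Myh2 (-0.1 without control replicate 1) and -0.42 to 2.08 for Myh7.

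As shares of CPM in place of TPM, mean myosin shares at control day 7 were 26.9% for Myh1, 1.53% for Myh2, 71.4% for Myh4 and 0.107% for Myh7, and 0.406% for Myh7 at hydrogel day 7. Of 1387 values of single genes under alternatives, 1153 kept direction and side of the threshold, 151 lost a call, 49 gained one and 34 turned. Depth limits Myh7, Myl3, Tnnc2 and Igfn1, which held 22 read pairs or fewer in some groups.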
